A study of Mus musculus with 4 samples.

Results

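CD8 T cells, the killer lymphocytes that recognise peptide on MHC class I, were picked out of the leukocytes of mouse brains carrying a breast tumour. Members were chosen by their measured UMIs (unique molecular identifiers, the counted transcripts): a barcode was taken when it had at least 300 genes and at most 15% mitochondrial molecules, at least 2 summed UMIs of the T cell receptor chains Cd3d, Cd3e and Cd3g, at least 1 UMI of Cd8a plus Cd8b1, no UMI of Cd4 or Foxp3, and fewer than 5 summed UMIs of the myeloid genes Csf1r, Cd68, Itgam and Adgre1. By that rule 111 of the 13412 barcodes kept from the CD45 sort were members, 60 in the SCDi library and 51 in the CTRL library, out of 30856 barcodes in the whole series.

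The SCDi library came from female C57BL/6 mice that received SCDi for 14 days, and the CTRL library from mice that received vehicle. The title of the series names SCD, stearoyl-CoA desaturase, as the target; the labels used here give neither the compound nor the dose. All mice carried intracranial GFP-expressing EO771 cells, a mouse mammary carcinoma line of the C57BL/6 strain, and the leukocytes were sorted as live CD45+, GFP- cells from dissociated brain. Each library pooled 3 mice before the sort, so each treatment is 1 sample: no difference between SCDi and CTRL has a test across animals, and the intervals given for them are 95% intervals that cover counting error only. The paired tumour sorts (live, CD45-, GFP+) held no CD8 T cell by the same rule among 8895 kept SCDi barcodes and 7453 kept CTRL barcodes, which allows shares of up to 0.0337% in the SCDi sort and 0.0403% in the CTRL sort.

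A CD8 T cell that has not met its antigen circulates through lymph nodes with the chemokine receptor Ccr7 on its surface and the transcription factors Tcf7 and Lef1 in its nucleus. On activation it divides, lowers those genes and makes granzymes, serine proteases that enter the target cell through the pore protein perforin (Prf1), and interferon gamma (Ifng). Under lasting antigen in tumours, such cells can also take up inhibitory receptors such as PD-1 (Pdcd1) and the transcription factor Tox.

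The label held up against the markers. Cd8a (chr6:71373427-71379173, plus strand, in the mm10 build) was seen in 55 of 60 SCDi cells and 46 of 51 CTRL cells, and Cd8b1, its partner chain, in 51 and 48; since the rule used both, these are descriptions. On the CPM scale, where the UMIs of a gene are scaled to the total of the CD8 cells of a library, Cd3e stood at 358 in SCDi and 340 in CTRL. Gzmk, a granzyme of memory-type CD8 cells that the rule did not use, was at 107 CPM in 18 SCDi cells and 72.8 CPM in 10 CTRL cells, against a UMI in 0.220% of SCDi and 0.284% of CTRL macrophage-type barcodes. Of the 11 NK cell markers, 9 were seen in SCDi and 8 in CTRL, summing to 1893 and 851 CPM and led in SCDi by Gzma at 1222 CPM. The receptors Ncr1 and Klra4 were at 0 in both libraries, while Klrb1c, Klre1 and Klra7 of the same list were seen in both. Regulatory T cell markers summed to 952 CPM in SCDi and 1152 CPM in CTRL with 4 of 5 seen in each, Foxp3 being barred by the rule, and were led by Ikzf2 at 380 and 563 CPM. The CD4 T cell markers, without Cd4 itself, summed to 441 and 294 CPM. B and plasma cell markers, of which 4 of 7 in SCDi and 3 of 7 in CTRL were seen, summed to 97.2 and 66.5 CPM with Ms4a1 at 0, and tumour markers to 2.49 and 1.25 CPM with Krt8 and Krt19 at 0. Myeloid markers were present in all 13 of 13, summing to 972 CPM in SCDi and 1477 CPM in CTRL, led by Cst3 at 212 and 488 CPM. Of the gamma delta T cell markers, 5 of 7 in SCDi and 4 of 7 in CTRL were seen, summing to 93.8 and 51.4 CPM, most of it the constant segment Tcrg-C2.

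Some members lay close to the gate. Cd8a plus Cd8b1 stood at exactly 1 UMI in 5 SCDi and 6 CTRL members, and the Cd3 genes at exactly 2 UMIs in 2 SCDi members and no CTRL member. Just outside, 4 SCDi and 10 CTRL barcodes met every other condition with 1 Cd3 UMI. A further 56 SCDi and 64 CTRL barcodes carried Cd3 and CD8 UMIs together with 10 or more myeloid UMIs. Cells that carried Cd4 beside CD8, 4 in SCDi and 17 in CTRL, were left out. So were those with Foxp3 beside CD8, 3 in SCDi and 21 in CTRL, and a cell can be in both counts. Members had a median of 12515.5 UMIs in SCDi and 9889 in CTRL. The 5 deepest cells held 28.8% of the SCDi UMIs and 30.4% of the CTRL UMIs, so a summed level can rest on few cells. The CD45 libraries shared 14 barcodes, none of them a member.

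CD8 T cells made up a larger part of the gated T cells in SCDi, where CD4 and Foxp3 T cells were fewer. They were 0.930% of kept CD45 barcodes in SCDi (0.710 to 1.20) and 0.733% in CTRL (0.546 to 0.962), a difference of 0.197 percentage points whose interval, -0.112 to 0.515, included 0. CD4 T cells (Cd4 without Foxp3) were 0.620% in SCDi and 1.29% in CTRL, lower by 0.673 points (0.346 to 1.01), and Foxp3 T cells, the regulatory cells, were 0.930% and 1.48%, lower by 0.550 points (0.180 to 0.924). Of all cells in the CD8, CD4 and Foxp3 gates, CD8 cells were 37.5% in SCDi (30.0 to 45.5) and 20.9% in CTRL (16 to 26.5), 16.6 points higher (7.58 to 25.6). Cells with CD8 UMIs beside Cd4 or Foxp3, which were more numerous in CTRL, are in none of these gates and were not counted. Nor were 42 of 206 SCDi and 69 of 335 CTRL cells that met the Cd3 and myeloid conditions without a UMI of Cd4, Cd8a, Cd8b1 or Foxp3. There were 1.5 CD8 cells for each CD4 cell in SCDi (0.989 to 2.30) and 0.567 in CTRL (0.394 to 0.808). NK cells, at 2.20% in SCDi and 2.43% in CTRL, differed by -0.228 points (-0.738 to 0.285).

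**Figure D1:**
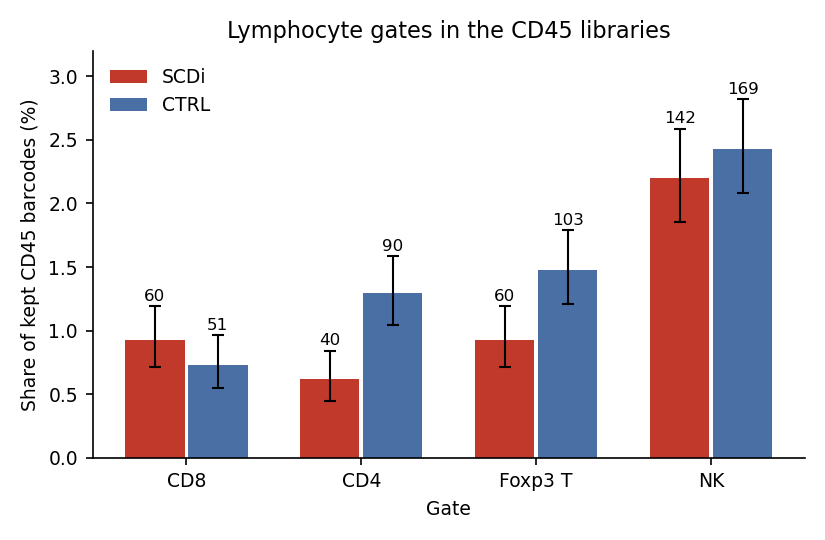
Share of kept CD45 barcodes (%) in each lymphocyte gate, SCDi in red left of CTRL in blue, with 95% Clopper-Pearson intervals and the number of cells above each bar. CD8 bars of 60 and 51 cells have overlapping intervals, whereas the CD4 (40 and 90 cells) and Foxp3 T (60 and 103 cells) bars do not.

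The CD8 cells of the SCDi library held more granzyme and perforin transcripts and fewer of naive-cell genes. Across 6113 genes with at least 40 UMIs over both libraries, 185 (3.03%) were at least 2-fold higher in SCDi and 164 (2.68%) at least 2-fold lower, with a median log2 ratio of -0.00, so neither direction prevailed overall. In CD4 T cells, 121 of 5954 genes (2.03%) were at least 2-fold higher and 331 (5.56%) at least 2-fold lower. Ratios are of summed UMIs scaled to the total of the gate, with 0.5 counts added.

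Of the cytotoxic effector list, 9 of 13 members with at least 20 UMIs were higher in SCDi and 4 were at least 2-fold higher, all of them granzymes or perforin, while over all 7895 genes at that depth 4.07% were at least 2-fold higher and 4.08% at least 2-fold lower. Gzmb, the granzyme that cleaves caspases, had 4604 UMIs in 36 of 60 SCDi cells and 763 UMIs in 20 of 51 CTRL cells, or 3823 against 957 CPM, a log2 ratio of 2.00 (1.89 to 2.11). The difference was spread over cells: 22 SCDi cells and 7 CTRL cells had 10 or more Gzmb UMIs, and the log2 ratio was 1.97 without the highest cell of each library. Gzma (chr13:113093825-113100981, minus strand), a tryptase-type granzyme, had 1472 UMIs in 20 SCDi cells and 182 UMIs in 11 CTRL cells, a log2 ratio of 2.42 (2.20 to 2.65). A single SCDi cell held 47.1% of its UMIs, and the log2 ratio was 1.95 without the top cells. Prf1 stood at 216 CPM in SCDi and 91.6 CPM in CTRL, 1.23 on the log2 scale (0.86 to 1.63), and Gzmc at 125 and 26.4 CPM, 2.22 (1.59 to 2.98), with 62.9% of the SCDi UMIs in 1 cell. Gzmk differed less, at 0.55 (0.10 to 1.03). Granule genes that resting cells also carry did not follow: Nkg7 stood at 1104 and 1045 CPM, and Srgn, the proteoglycan that packs granzymes, at 754 and 900 CPM. When members were restricted to cells with no myeloid UMI (31 SCDi and 34 CTRL cells), the Gzmb ratio was 1.00, that of Prf1 turned to -0.29 and that of Gzmk to -0.05.

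**Figure D2:**
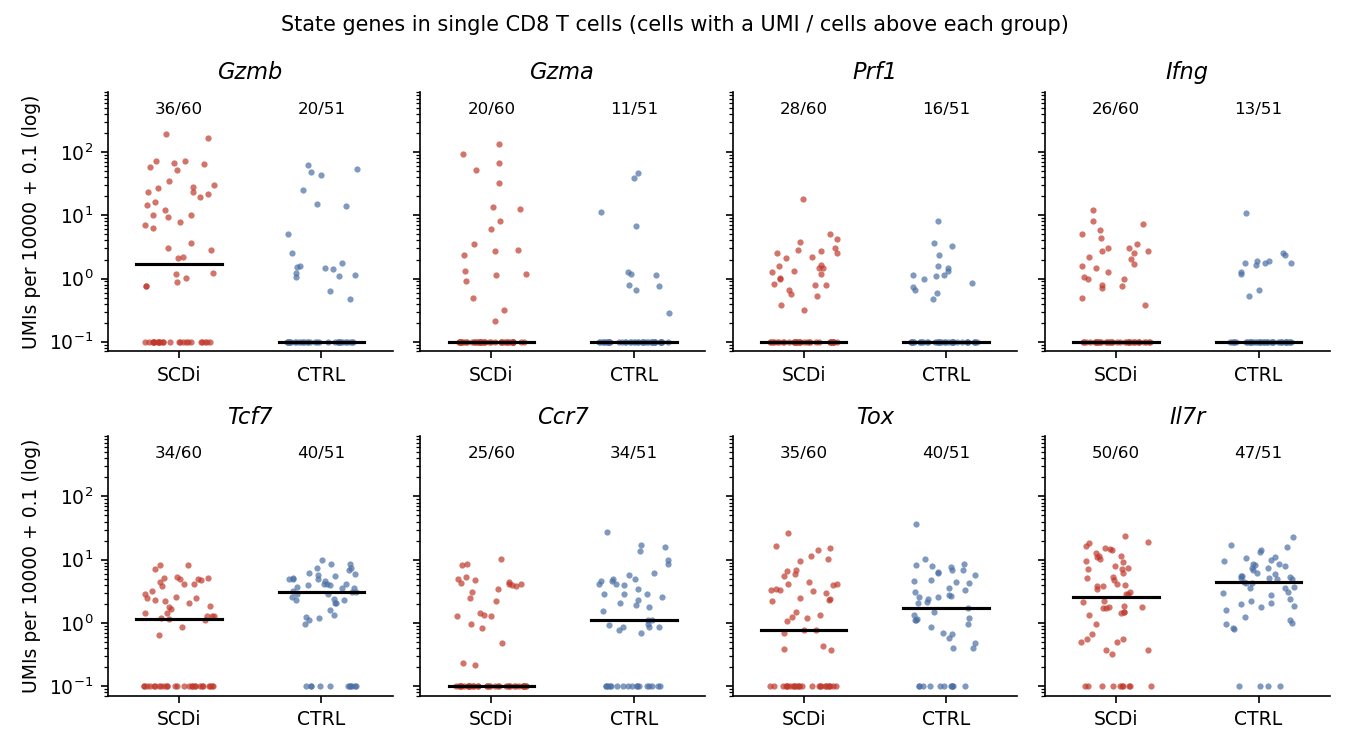
UMIs per 10000 UMIs of each CD8 T cell, plus 0.1 on a log axis, for 8 state genes, with SCDi left of CTRL. Bars are medians and the fractions are cells with a UMI over all cells; Gzmb is seen in 36 of 60 SCDi and 20 of 51 CTRL cells, Tcf7 in 34 of 60 and 40 of 51.

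Shares of cells ran the same way at equal depth. After each cell was thinned to 3000 UMIs, which left out 1 SCDi and 2 CTRL cells, Gzmb was seen in 50.8% of SCDi cells (37.5 to 64.1) and 22.4% of CTRL cells (11.8 to 36.6). Macrophage-type barcodes, which should not make it, had Gzmb in 2.97% in SCDi and 2.55% in CTRL at the same 3000 UMIs, from median depths of 20354.5 and 19243. Prf1 was seen in 16.9% of SCDi and 6.12% of CTRL cells with overlapping intervals, against 1.51% and 1.45% of macrophage-type barcodes. Without thinning, the Gzmb shares were 60% in SCDi and 39.2% in CTRL CD8 cells, against 10.5% and 10.1% of macrophage-type barcodes.

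Of the secreted signals, 7 of 10 measured cytokines and chemokines were higher in SCDi and 5 were at least 2-fold higher. Ifng had 317 UMIs in 26 SCDi cells and 79 UMIs in 13 CTRL cells, a log2 ratio of 1.40 (1.05 to 1.78). The chemokines Ccl4 and Xcl1, of which Xcl1 calls in cross-presenting dendritic cells, had ratios of 2.39 (2.06 to 2.76) and 2.24 (2.00 to 2.50). In each of them 1 SCDi cell held most of the UMIs, 64.5% for Ccl4 and 63.2% for Xcl1, and without the top cells the ratios were 1.56 and 1.30. Ccl5, a chemokine of effector and memory cells, was lower in the sum at -0.30 (-0.42 to -0.18) and had ratios of 0.36 and 0.40 when each cell counted equally by its own CPM or by thinning. Without the 33 cells with a UMI of Mki67 or Top2a, which mark dividing cells, the Ifng ratio was -0.15.

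The members of a list of naive, memory and progenitor genes were lower in SCDi in 15 of 16 members, 12 of them with a counting interval below 0, against 11.7% of all genes at that depth; the list median was -0.56. Tcf7, the factor of naive and stem-like T cells, stood at 110 CPM in SCDi and 261 CPM in CTRL, -1.25 (-1.58 to -0.93). Ccr7, the chemokine receptor that guides cells into lymph nodes, was at 105 and 285 CPM, -1.43 (-1.76 to -1.11). Bach2, a repressor that holds T cells in a quiescent state, was at 234 and 577 CPM, -1.30 (-1.52 to -1.08), and Il7r, the receptor of the survival cytokine IL-7, at 286 and 412 CPM, -0.52 (-0.74 to -0.30). The exception, Xcl1, is on the list as a gene of stem-like cells. Leaving out cells with Mki67 or Top2a brought the list median to -0.04, with Ccr7 at -1.67. When the gate was applied after thinning each cell to 3000 UMIs, the list median was -0.16 and Ccr7 -0.08.

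Cells with a UMI of Gzma, Gzmb, Gzmk or Prf1 were 44 of 60 in SCDi, 73.3%, and 28 of 51 in CTRL, 54.9%, higher by 18.4 points (0.628 to 35). At 3000 UMIs per cell they were 62.7% in SCDi and 32.7% in CTRL, higher by 30.1 points (11.1 to 46.1). In CD4 cells at that depth the same genes were seen in 22.5% in SCDi and 24.1% in CTRL. At the same depth Ccr7 was seen in 22% of SCDi (12.3 to 34.7) and 40.8% of CTRL CD8 cells (27.0 to 55.8), with overlapping intervals, against 1.04% and 2.27% of macrophage-type barcodes. Tcf7 was seen in 30.5% of SCDi (19.2 to 43.9) and 61.2% of CTRL CD8 cells (46.2 to 74.8), against 0.220% and 0.504% of macrophage-type barcodes.

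Of the inhibitory receptor and exhaustion list, 6 of 15 members were higher and 9 lower in SCDi, with a median of -0.21. Pdcd1 had 118 UMIs in 22 SCDi cells and 36 UMIs in 10 CTRL cells, a log2 ratio of 1.10 (0.57 to 1.70). Havcr2 (TIM-3) was at 101 and 56.5 CPM, 0.83 (0.34 to 1.37), and Entpd1 (CD39, which breaks down extracellular ATP) at 41.5 and 11.3 CPM, 1.81 (0.84 to 3.09). The Entpd1 ratio turned to -0.61 when the gate was applied after thinning. Tox, a factor of exhausted T cells, went the other way, at 144 and 255 CPM, -0.83 (-1.13 to -0.53); 1 CTRL cell held 29.6% of its UMIs, and the ratio was 0.28 among cells with no myeloid UMI. Ctla4 stood at 252 and 343 CPM, Lag3 at 31.6 and 38.9 CPM and Tigit at 33.2 and 28.9 CPM. Cxcr6 and Itgae, genes of tissue-resident T cells, had ratios of 0.02 (-0.41 to 0.47) and -0.45 (-1.90 to 1.03).

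S phase genes were higher in SCDi and mitotic genes were not. Of 29 S phase members, 27 were higher, 18 with a counting interval above 0 against 11.2% of all genes, and the median was 0.68. The replicative helicase subunits Mcm3 and Mcm5 stood at 130 and 115 CPM in SCDi and at 64.0 and 62.7 CPM in CTRL. Of 30 G2 and mitosis members, 16 were higher and 14 lower, with a median of 0.02. Mki67 had a ratio of 0.26 (-0.09 to 0.63), and Ube2c, which drives the exit from mitosis, of -0.57 (-0.93 to -0.22). Cells with Mki67 or Top2a were 33.3% of members in SCDi (20 cells) and 25.5% in CTRL (13 cells), a difference of 7.84 points (-9.23 to 23.9). These few cells held 66.6% of the SCDi UMIs and 50.9% of the CTRL UMIs. Without them the S phase median was -0.22, and among cells with no myeloid UMI it was -0.04.

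**Figure D3:**
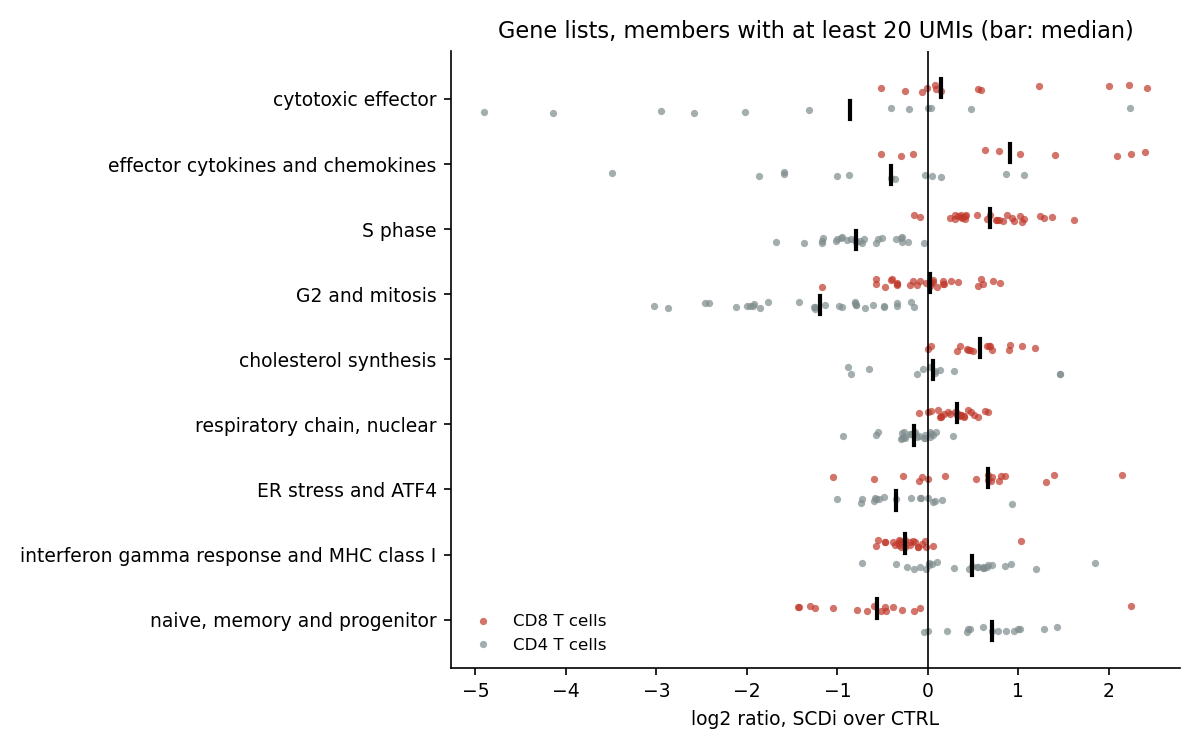
The log2 ratio of SCDi over CTRL for each list member with at least 20 UMIs, in CD8 T cells (red, upper row of each pair) and CD4 T cells (grey, lower row), with black bars for medians. All naive list members but Xcl1 lie left of 0 in CD8 cells (median -0.56), against a median of 0.71 in CD4 cells, and 27 of 29 S phase members lie right of 0 in CD8 cells (median 0.68), against a median of -0.79 in CD4 cells.

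Among genes of lipid and energy metabolism, Scd2, the only desaturase gene with 20 or more UMIs, had 91 UMIs in 27 SCDi cells and 26 UMIs in 10 CTRL cells, 75.6 against 32.6 CPM, a log2 ratio of 1.19 (0.57 to 1.90). At 3000 UMIs per cell it was seen in 15.3% of SCDi CD8 cells (7.22 to 27.0) and 4.08% of CTRL CD8 cells (0.498 to 14). Macrophage-type barcodes had it in 9.86% in SCDi and 6.33% in CTRL at that depth, and stood at 37.4 and 24.3 CPM. Whether those barcodes make Scd2 themselves was not tested, so their shares do not give a background level. Without thinning Scd2 was seen in 45% of SCDi and 19.6% of CTRL CD8 cells, against 42.2% and 28.6% of macrophage-type barcodes. Scd1 had 2 UMIs in SCDi and 0 in CTRL, Scd4 1 and 0, and Scd3 none, too few for a ratio. All 16 cholesterol synthesis members with at least 20 UMIs were higher in SCDi, with a median of 0.57. Of these, 4 had a counting interval above 0, against 11.2% of all genes at that depth. They included Msmo1 at 1.18 (0.13 to 2.49) and Insig1, the sterol-sensing brake on the pathway, at 1.03 (0.02 to 2.27). That median was -0.02 among cells with no myeloid UMI and 0.08 without the 5 deepest cells of each library. Of the LXR targets, which answer to sterol load, 6 of 9 were lower; Abcg1, a sterol exporter, was at 28.2 and 65.2 CPM, -1.20 (-1.88 to -0.56), and Mylip, which degrades the LDL receptor, at 23.3 and 66.5 CPM, -1.50 (-2.23 to -0.83). Nuclear-encoded respiratory chain genes were higher in 23 of 24 members by a median of 0.32, 12 of them with a counting interval above 0. Of 19 hypoxia and glycolysis members 13 were higher, 8 with such an interval, led by Eno1 at 296 and 117 CPM, 1.34 (1.01 to 1.69). Atp5g1 and Tpi1, each among the highest of its list, fell below 0 without cells with Mki67 or Top2a.

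Of the ER stress and ATF4 list, 13 of 18 members were higher in SCDi. An interval above 0 was found for 11, against 11.2% of all genes at that depth. The list median of 0.66 turned to -0.13 without cells with Mki67 or Top2a. Asns (asparagine synthetase) had 83 UMIs in 12 SCDi cells and 12 UMIs in 6 CTRL cells, 2.14 (1.31 to 3.2), and the disulphide isomerase Pdia6 was at 228 and 91.6 CPM, 1.31 (0.94 to 1.71). Ddit3 and Atf3, stress factors of the same pathway, had ratios of -1.05 (-2.22 to 0.05) and -0.60 (-2.02 to 0.83). Immediate early genes were lower in 17 of 24 members with a median of -0.32; Jun stood at 68.1 and 217 CPM, -1.67 (-2.07 to -1.29). Genes of the interferon gamma response and MHC class I were lower in 23 of 25 members by a median of -0.26, among them Irf1 at 110 and 161 CPM. Their exception at 2-fold was Socs1, the inhibitor of that pathway, at 90.5 and 43.9 CPM. The type I interferon list had a median of -0.00.

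The highest ratio among genes with at least 40 UMIs and a UMI in 10 or more cells of a library, leaving out ribosomal, mitochondrial and predicted genes, was that of Mt1, a metallothionein that binds zinc. It had 297 UMIs in 18 of 60 SCDi cells, at most 94 in a cell, and 9 UMIs in 7 of 51 CTRL cells, at most 2 in a cell, a log2 ratio of 4.37 (3.5 to 5.59). Its neighbour Mt2, named after its values were seen, had 66 UMIs in 6 SCDi cells and 1 UMI in 1 CTRL cell, 4.87 (2.92 to 10.77). Mt1 was not higher in CD4 or Foxp3 T cells of the SCDi library. It stood at 6.90 CPM in SCDi and 34.7 CPM in CTRL CD4 cells, and at 78.8 and 152 CPM in Foxp3 T cells. Mt1 and Mt2 lie side by side on chromosome 8. Their promoters are shown since metallothionein genes are known to be driven through short metal response elements. Below are the 250 bases before and 50 bases after each start site from RefSeq (GRCm38.p6, plus strand), at chr8:94178839-94179138 for Mt1 and chr8:94172368-94172667 for Mt2, with matches to the element core TGCACNC or TGCGCNC on either strand in capitals.
Mt1: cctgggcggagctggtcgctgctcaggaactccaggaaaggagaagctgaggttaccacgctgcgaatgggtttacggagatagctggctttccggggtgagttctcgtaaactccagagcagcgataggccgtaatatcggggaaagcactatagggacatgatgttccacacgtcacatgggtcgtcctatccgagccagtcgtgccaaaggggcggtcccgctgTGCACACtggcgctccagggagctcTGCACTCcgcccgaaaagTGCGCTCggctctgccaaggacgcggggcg
Mt2: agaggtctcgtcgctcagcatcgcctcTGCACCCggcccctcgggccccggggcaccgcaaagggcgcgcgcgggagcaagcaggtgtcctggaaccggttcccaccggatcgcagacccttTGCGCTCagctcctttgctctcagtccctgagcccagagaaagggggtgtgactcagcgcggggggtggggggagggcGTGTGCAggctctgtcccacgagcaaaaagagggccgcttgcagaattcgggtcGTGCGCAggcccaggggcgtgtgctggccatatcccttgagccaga
The Mt1 window held 3 matches and the Mt2 window 4. Of 32851 promoter windows of the same length, 25.7% held at least 1, 1.97% at least 3 and 0.517% at least 4. A match of letters does not show that the element was in use in these cells.

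Other genes among the 12 highest were Gcat, an enzyme of threonine breakdown, at 36.5 and 5.02 CPM, log2 2.71 (1.41 to 4.80), and Ifitm1, a membrane protein that blocks viral entry, at 916 and 171 CPM, 2.42 (2.17 to 2.69). Ifitm1 was seen in 13 SCDi and 16 CTRL cells, fewer cells in SCDi but more UMIs. Ifitm2, looked at after the values were seen, was at 599 and 152 CPM, 1.97 (1.70 to 2.27), and Ifitm3 at 223 and 243 CPM. The remaining genes were Cenpv, Batf3, Lmna and Knop1, with ratios from 2.13 to 2.28. Among the 12 lowest, St8sia1, which makes the ganglioside GD3, stood at 9.96 and 60.2 CPM, -2.55 (-3.64 to -1.66), and Aff3, a nuclear elongation-complex protein, at 110 and 424 CPM in 35 SCDi and 41 CTRL cells, -1.94 (-2.24 to -1.65). Another 3 of the 12 are known from antigen-presenting or myeloid cells: 1 CTRL cell held 63.0% of the CTRL UMIs of H2-Aa, 50% of those of H2-Eb1 and 80.5% of those of Marcks, and without the top cells the Marcks ratio of -2.02 was 0.05. The other 7 were Taf4b, Zc3h12d, Rnf103, Enox2, Rapgef4, Kansl1l and Irs2, from -1.86 to -1.71.

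In CD4 T cells of the same libraries, several state genes ran the opposite way. Gzmb had 24 UMIs in 4 of 40 SCDi CD4 cells and 1377 UMIs in 26 of 90 CTRL CD4 cells, a log2 ratio of -4.14 (-4.82 to -3.59), against 2.00 in CD8 cells. A single CTRL CD4 cell, the deepest with 101116 UMIs, held 83.3% of those CTRL Gzmb UMIs, and without it the CD4 ratio was -1.68 (-2.37 to -1.09). Ifng had a ratio of -1.59 in CD4 cells against 1.40 in CD8 cells, and -1.57 without that cell. For Prf1 the ratio of -2.59 in CD4 cells rested on the same cell, which held 81.2% of the CTRL UMIs, while 1 SCDi cell held all 9 SCDi UMIs. Without the CTRL cell the Prf1 ratio in CD4 cells was -0.30 (-1.60 to 0.73), an interval that included 0. Tcf7 was at 0.96 (0.57 to 1.32) in CD4 cells against -1.25. The naive list was higher in 14 of 15 CD4 members by a median of 0.71, all 25 measured S phase members were lower by -0.79, and all 30 mitotic members were lower by -1.19. Without the deepest CTRL cell those medians were 0.63, -0.68 and -0.92. Cells with Mki67 or Top2a were 20% of SCDi and 45.6% of CTRL CD4 cells, whose median depths were 7783 and 11474.5 UMIs. At 3000 UMIs per cell the shares were 10% and 24.1%. That difference of -14.1 points had an interval, -25.8 to 1.05, that included 0. Each ratio compares 1 library with another, and no test of the difference between the cell types was possible across animals.

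**Figure D4:**
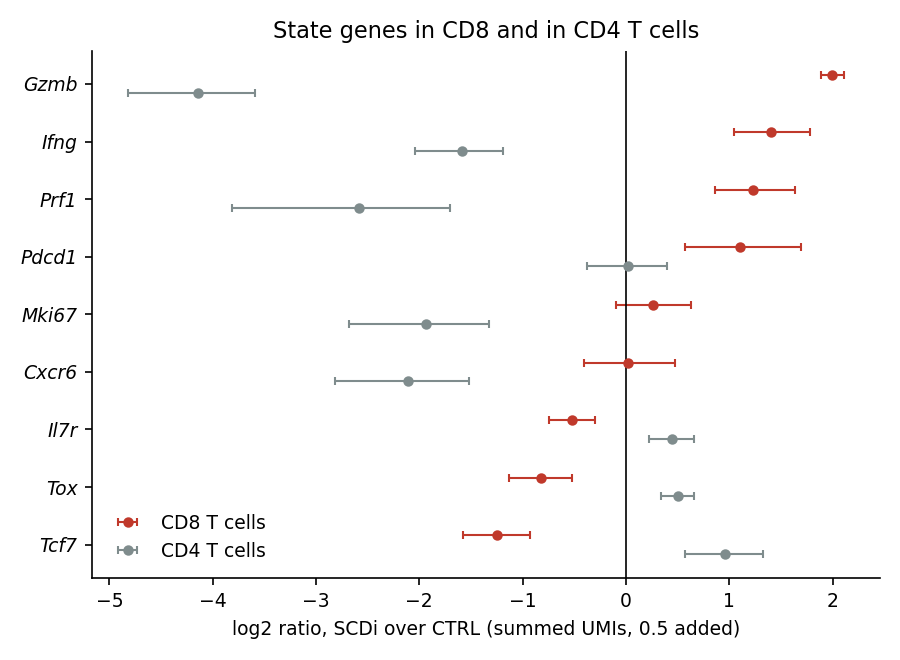
The log2 ratio of SCDi over CTRL of 9 state genes in CD8 T cells (red) and CD4 T cells (grey), with 95% intervals that cover counting error only. Gzmb, Ifng and Prf1 lie right of 0 in CD8 cells and left of 0 in CD4 cells, and Il7r, Tox and Tcf7 the other way round; without the CTRL CD4 cell of most UMIs, which is included here, Gzmb stands at -1.68 and Prf1 at -0.30 in CD4 cells.

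Against CD4 T cells, CD8 cells of both libraries held more Ly6c2, Klre1, Klra7 and Gzma, and no UMI of Areg or Ccr8. UMIs were summed per gate and library (CD8, CD4, Foxp3 T and NK, 8 sums), and edgeR's quasi-likelihood test with library as a block and Benjamini-Hochberg adjustment over 9613 genes was used; the libraries differ in treatment and are the only replicates (n = 2). At an adjusted p under 0.05, 91 genes (0.947%) were higher in CD8 than in CD4 cells and 201 (2.09%) lower. All 292 had the same direction in each library, which a test on these same libraries favours, so this is not replication. Without the deepest CTRL CD4 cell, which held 7.32% of that gate's UMIs, 155 were higher and 260 lower. Cd8a, Cd8b1 and Cd4 are among them and define the gates.

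Ly6c2, a surface protein of memory CD8 cells, stood at 1076 and 1314 CPM in the SCDi and CTRL CD8 cells, against 55.2 and 34 CPM in CD4 cells, a log2 fold change of 4.90 ± 0.29 (SE; edgeR adjusted p = 3.63e-05). Klre1, a lectin-like NK receptor, was at 117 and 197 CPM in CD8 cells, against 2.30 and 5.79 CPM in CD4 cells, 5.11 ± 0.42 (edgeR adjusted p = 0.000144). Gzma was at 1222 and 228 CPM in CD8 cells, against 34.5 and 7.24 CPM in CD4 cells, 5.31 ± 0.79 (edgeR adjusted p = 0.00499). Klra7, a Ly49 receptor for MHC class I, had 155 UMIs in CD8 cells of both libraries and 1 UMI in CD4 cells, a 141-fold ratio with a counting interval of 24.9 to 5591; it came from 7 SCDi and 6 CTRL CD8 cells. Klra6, a relative, was 13.6-fold higher or more, with 45 UMIs in CD8 and 0 in CD4 cells; fold bounds set a count of 0 to 3 UMIs over both libraries. Reads of the closely related Klra genes may be shared out between them. Of 13 cytokine and chemokine members tested, 2 were called higher (Xcl1 and Ccl5) and 2 lower (Il2 at -4.46, edgeR adjusted p = 0.00442, and Il10 at -2.87, edgeR adjusted p = 0.0151), with a median of 0.05 against the 0.947% and 2.09% of all genes; Ccl5 stood at 1022 and 1259 CPM in CD8 cells, against 387 and 350 CPM in CD4 cells, 1.68 ± 0.32 (edgeR adjusted p = 0.0181).

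Whether Gzmb and Prf1 passed this test turned on 1 cell. With all cells, Gzmb had a log2 ratio of CD8 over CD4 of 6.08 in SCDi and -0.06 in CTRL (edgeR adjusted p = 0.295) and Prf1 of 3.31 and -0.51 (edgeR adjusted p = 0.395). Without the deepest CTRL CD4 cell the ratios in CTRL were 2.41 for Gzmb and 1.78 for Prf1, and the fit gave 4.14 ± 0.59 for Gzmb (edgeR adjusted p = 0.00281) and 2.74 ± 0.46 for Prf1 (edgeR adjusted p = 0.00635). Ifng did not pass in either fit, with ratios of 1.10 in SCDi and -1.89 in CTRL (edgeR adjusted p = 0.822 with all cells and 0.807 without that cell). Gzmk, at 107 and 72.8 CPM in CD8 cells and 27.6 and 0 CPM in CD4 cells, had an adjusted p of 0.0601 in edgeR, and of 0.0407 without that cell, which held none of its UMIs.

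Among genes lower in CD8 cells, Areg (an EGF receptor ligand), Ccr8, Itgb8 and Ccn4 had no UMI in any CD8 cell. Areg was at 57.5 and 55.0 CPM in CD4 cells, at least 37.1-fold lower in CD8 (edgeR adjusted p = 0.000222), and Ccr8 at 18.4 and 18.8 CPM, at least 12.5-fold lower (edgeR adjusted p = 0.00469). Both were higher still in Foxp3 T cells, Areg at 105 and 99.5 CPM and Ccr8 at 42.9 and 31.0 CPM. Ebf1 and Ms4a1, which belong to B cells, were also at 0 in CD8 cells, and Ebf1 was at 106 and 48.5 CPM in CD4 cells. How far regulatory cells without a Foxp3 UMI, or B cell RNA, entered the CD4 gate was not tested. Tox was lower in CD8 cells, at 144 and 255 CPM against 1063 and 751 CPM in CD4 cells, -2.18 ± 0.33 (edgeR adjusted p = 0.00544), as was Pdcd1, at 98.0 and 45.2 against 173 and 171 CPM, -1.24 ± 0.28 (edgeR adjusted p = 0.0410). Of 18 inhibitory receptor members tested, 5 were called lower in CD8 (Tox, Pdcd1, Ctla4, Btla and Nfatc1) and 2 higher (Cd160 and Eomes), against 2.09% and 0.947% of all genes. None of the 29 S phase, 24 glycolysis or 24 respiratory chain members was called in either direction. At those all-gene shares few calls would fall in lists of this size, so their absence says little. The list medians were 0.72, 0.10 and 0.27.

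**Figure D5:**
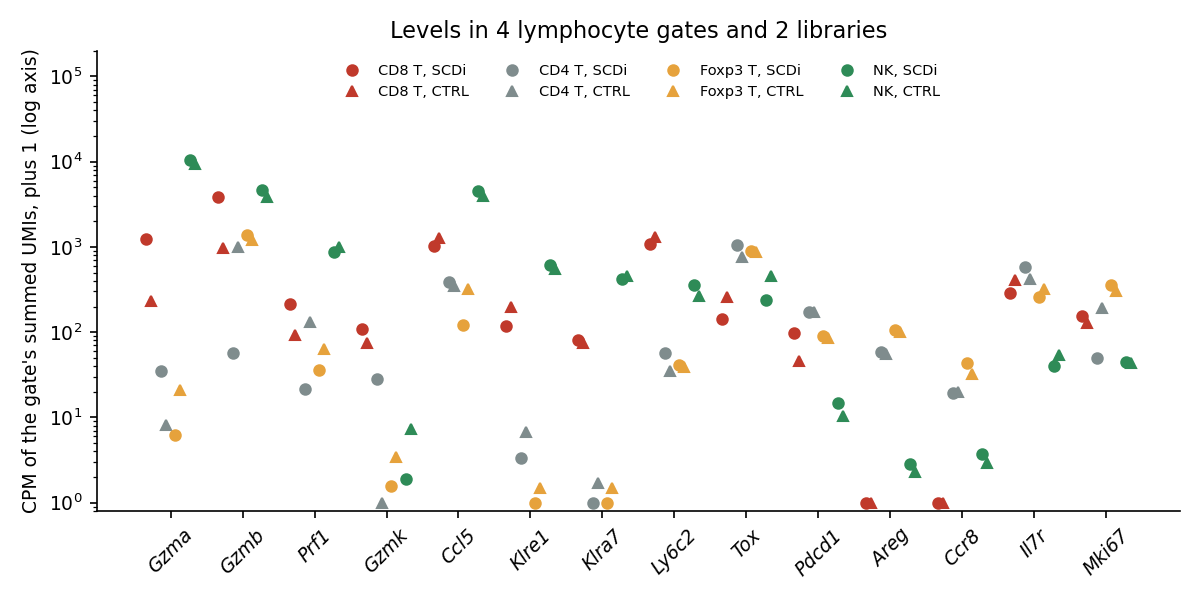
CPM of the summed UMIs of each gate, plus 1 on a log axis, for 14 genes, in CD8 T, CD4 T, Foxp3 T and NK cells; circles are SCDi and triangles, just right of them, CTRL. Gzma, Klre1, Klra7 and Ly6c2 are higher in CD8 than in CD4 T cells in both libraries, Gzmb is higher in CD8 cells in SCDi and level in CTRL, where 1 CD4 cell holds 83.3% of the CD4 UMIs, and Areg and Ccr8 are at 0 in CD8 cells.

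NK cells, the other killer lymphocytes of the sort, were kept barcodes with at least 2 summed UMIs of Ncr1 and Klrb1c. They had no UMI of Cd3d, Cd3e or Cd3g and fewer than 5 myeloid UMIs. Set beside them, 684 genes (7.12%) were higher in CD8 cells and 740 (7.7%) lower in the same edgeR fit. Every one had the same direction in each library, which the choice of genes by that fit favours here too. Genes that define the gates were not left out of these counts, and the rules fix their direction. DESeq2 called 451 higher and 475 lower. Gzma was lower in CD8 cells, at 1222 and 228 CPM against 10373 and 9465 CPM in NK cells, -3.98 ± 0.64 (edgeR adjusted p = 0.0029), and Prf1 at 216 and 91.6 against 873 and 1006 CPM, -2.45 ± 0.53 (edgeR adjusted p = 0.0120). Gzmd and Gzme, granzymes of the mouse chromosome 14 cluster, had no UMI in CD8 cells and were at 246 and 841 CPM and 246 and 355 CPM in NK cells. Gzmb did not pass, at -0.75 ± 0.84 (edgeR adjusted p = 0.593): SCDi CD8 cells, at 3823 CPM, stood near the 4633 CPM of SCDi NK cells, and CTRL CD8 cells, at 957 CPM, below the 3858 CPM of CTRL NK cells. Gzmk was higher in CD8 cells, 4.43 ± 0.87 (edgeR adjusted p = 0.00791), as were Il7r, 2.98 ± 0.28 (edgeR adjusted p = 0.000119), and Ccr7, 3.58 ± 0.53 (edgeR adjusted p = 0.00177). Themis, a signalling protein of the T cell receptor, had 1125 UMIs in CD8 cells and none in NK cells, at least 503-fold higher. Cell cycle genes were higher too: 19 of 29 S phase and 18 of 30 G2 and mitosis members were called higher in CD8 cells and none lower. NK cells were shallower, with medians of 6301 UMIs in SCDi and 6864 in CTRL, against 12515.5 and 9889 in CD8 cells. Members with Mki67 or Top2a held 66.6% and 50.9% of the CD8 UMIs. The CD8 gate asks for Cd3 UMIs and the NK gate for none, and the part of depth in these calls was not tested.

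T cell receptor segments were too sparse to describe clones in this 3' library. A variable beta segment was seen in 12 of 60 SCDi cells and 7 of 51 CTRL cells, with at most 2 cells per segment. Trgv2, a gamma chain segment, was seen in 10 SCDi and 4 CTRL CD8 cells, while no member of either library had a delta variable segment. Trdc, the delta constant segment, was at 0 in the CTRL cells. Leaving out the 8 members with Trdc or at least 2 UMIs of Ncr1 or Klrb1c gave a log2 ratio of SCDi over CTRL of 2.22 for Gzma and 2.02 for Gzmb.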

How the data were processed

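Mouse CD45-sorted leukocytes were profiled with 10x 3' single-cell RNA-seq, 1 library of 3 pooled mice per treatment. The deposited counts are whole UMI counts per gene and barcode; the submitters' processing notes name Cell Ranger 7.1.0 and the mm10 build, and whether intronic reads were counted is not given in the sources used here. The labels' protocols also name Seurat. Deposited barcodes were filtered and gated as described, with no doublets removed beyond the gate (Scrublet's own threshold marked 2 SCDi and 1 CTRL barcodes). The CD45 libraries held 141068797 UMIs (SCDi) and 135851178 UMIs (CTRL) in 6777 and 7332 barcodes; CD8 sums held 1204247 and 796924. Shares have Clopper-Pearson intervals, differences Newcombe intervals and ratios exact conditional binomial intervals. Named genes were the 12 highest and 12 lowest ratios with at least 40 UMIs and 10 cells of a library, 12 in each direction per gate comparison, list extremes, markers and state genes. Gate sums were tested with edgeR 4.0.16 (TMM, filterByExpr) in R 4.3.3, with DESeq2 1.42.0 as an alternative; other steps used Python 3.11.15. The intervals, the thinning and the edgeR fit were run on simulated counts with known answers. For the ratio intervals these were independent Poisson counts, so that run does not cover genes whose UMIs lie mostly in 1 cell. Some genes are not reported here. Members and gene lists were chosen with earlier results of these data known. Gene positions are from GENCODE M21 (GRCm38).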

Additional observations from a re-analysis of the deposited data

Results flagged for a closer look

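The SCDi over CTRL ratio ran in opposite directions in CD8 and in CD4 T cells, with counting intervals on opposite sides of 0, for 15 of the 34 named and state genes, of which 24 were picked for their extreme CD8 ratios. Over all 5511 genes with at least 40 UMIs in each cell type, 396 (7.19%) did so. The difference between the cell types was not tested, since each treatment is 1 library, and the intervals cover counting error only. A single CTRL CD4 cell, the deepest of its gate, weighs on several of the CD4 values; without it 13 of the 34 remained, Gzmc and Prf1 being lost, and 323 of 5380 genes (6%) overall. On the log2 scale Gzmb stood at 2.00 in CD8 and -4.14 in CD4 cells, Prf1 at 1.23 in CD8 and -2.59 in CD4 cells, Ifng at 1.40 in CD8 and -1.59 in CD4 cells and Ccl4 at 2.39 in CD8 and -0.88 in CD4 cells. Without that cell, which held 83.3% of the CTRL CD4 UMIs of Gzmb and 81.2% of those of Prf1, the CD4 ratios were -1.68 for Gzmb and -0.30 for Prf1. Gzmc stood at 2.22 in CD8 and -4.90 in CD4 cells, the last from 1 SCDi and 142 CTRL UMIs with an interval of -10.79 to -2.98; that cell held 139 of the 142, and without it the CD4 ratio was 0.34. Mt1 stood at 4.37 in CD8 and -2.12 in CD4 cells, Ifitm1 at 2.42 in CD8 and -4.53 in CD4 cells and Lmna at 2.13 in CD8 and -2.36 in CD4 cells. The same cell held 39.6% of the CTRL CD4 UMIs of Mt1 and 27.2% of those of Ifitm1, and without it the CD4 ratios were -1.52 for Mt1 and -4.18 for Ifitm1. Batf3 at 2.19 and Asns at 2.14 in CD8 cells had no UMI in SCDi CD4 cells, against 26 and 18 UMIs in CTRL CD4 cells, which makes them at least 2.73-fold and 1.89-fold lower there, taking 3 counts for 0. The following ran the other way: Tcf7 at -1.25 in CD8 and 0.96 in CD4 cells, Il7r at -0.52 in CD8 and 0.44 in CD4 cells and Tox at -0.83 in CD8 and 0.50 in CD4 cells. Aff3 stood at -1.94 in CD8 and 1.15 in CD4 cells and Taf4b at -1.86 in CD8 and 1.11 in CD4 cells. The CD4 gate held 40 SCDi and 90 CTRL cells, of which 20% and 45.6% had a UMI of Mki67 or Top2a. At 3000 UMIs per cell these shares were 10% and 24.1%, with an interval of the difference that included 0. The part of that makeup in these values was not tested.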

How the results depend on the processing

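With 1 library per treatment, no alternative measures the spread between animals. The CD8 share of CD45 barcodes was higher in SCDi under each alternative gate and filter except that with no myeloid UMI, where 31 SCDi and 34 CTRL cells differed by -0.00818 points; the share of the 3 T cell gates was higher by 13.9 to 18.3 points under all of them. Of the 24 genes with the highest or lowest ratios, all with a value kept their direction under every alternative except Lmna (-0.44) when the gate was applied after thinning, and Marcks, at 0.22 with the highest Scrublet scores removed and 0.052 without the highest cell of each gene. Only 8 of them had a value after thinning cells to 3000 UMIs, and 18 with no myeloid UMI or without cells with Mki67 or Top2a. They were picked for extreme ratios in the same cells, which favours a kept direction. The counts of genes at least 2-fold higher and lower in SCDi changed with the filters and settings. They were 74 and 83 with no myeloid UMI, 73 and 91 without cells with Mki67 or Top2a, 56 and 52 at a minimum of 100 UMIs, 1156 and 2173 with no minimum, and 421 and 326 after thinning cells to 3000 UMIs. With 5 counts added 96 were higher, and with the gate after thinning 528 were lower. Reversals among other genes and lists, in cells with no myeloid UMI, were Prf1 (-0.29), Gzmk (-0.054), Tox (0.28), Ltb (0.075), Ube2c (0.62) and the S phase median (-0.042). Without cells with Mki67 or Top2a they were Ifng (-0.15), Ccl5 (0.061), Tpi1 (-0.47), Gbp8 (0.066), Atp5g1 (-0.38) and the S phase (-0.22) and ER stress (-0.13) medians. With the gate after thinning they were Entpd1 (-0.61) and Cd244a (-0.29), with CPM averaged over cells Srgn (0.044), Ccl5 (0.36) and Msmo1 (-0.017), and after thinning cells to 3000 UMIs Ccl5 (0.40), Gbp8 (0.30) and Atp5g1 (-0.042). The cause of these changes was not tested. In the gate comparisons, 304 genes were higher and 398 lower in CD8 than in CD4 cells with no filter on low counts, and 155 were higher without the CTRL CD4 cell of most UMIs; DESeq2 called 451 higher and 475 lower than in NK cells. No gene called there by edgeR reversed, but genes that were not called could change sign between the libraries. For CD8 over CD4, Ifng was at 1.10 in SCDi and -1.89 in CTRL, and Prf1 at 3.31 and -0.51. From either library alone, 111 of 146 values moved by more than their SE, and none of these values has a test. Leaving out the highest cell, the 5 deepest cells or the CTRL CD4 cell and thinning the sums were added after seeing the data. No paired analysis was possible because each treatment has 1 library; the gate fits already hold library as a block.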
